A study of Mus musculus with 17 samples.

Results

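The HOX cluster genes encode homeodomain transcription factors and lie in 4 clusters of the mouse genome, HOXA on chromosome 6, HOXB on chromosome 11, HOXC on chromosome 15 and HOXD on chromosome 2. Members were taken as every gene whose symbol is Hox followed by a cluster letter (a to d) and a paralogue number, which gave the 38 genes described here among the 37858 distinct symbols of the series. The files of the wild type prostates and of the tumours of other genotypes listed 25 of these 38 among 13905 genes, namely 9 of 10 HOXA, 9 of 10 HOXB, 1 of 9 HOXC and 6 of 9 HOXD genes. The lowest mean value among those 13905 genes was 15.6 units, so low genes are missing from these files, and a HOX gene that is not listed there is given no value. The files of the inducible model listed 37 of the HOX features among 39179, with Hoxd3 and Hoxd4 sharing a single feature that is called Hoxd3 here.

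RNA was sequenced from whole prostate or prostate tumour of C57BL/6 mice, so each value mixes epithelium, stroma and any other tissue in the sample. The wild type group held 3 prostates from mice aged 12 months. The Ctnnb1 group held 3 tumours, at about 12 months, with exon 3 deleted from one Ctnnb1 allele; this exon encodes the part of beta-catenin that marks the protein for destruction, so its loss stabilises the protein that carries the canonical Wnt signal. The genotype label carries the letters pc, which it does not spell out, and names no Cre driver for this group. The combined group held 3 tumours, at about 6 to 8 months, with the same Ctnnb1 allele and a further engineered change. The inducible model carried the combined genotype through a Cre recombinase active in prostate epithelium and switched on by a drug, and its tumours were taken at about 15 months after mock treatment (2 samples) or ADT (3 samples), the usual abbreviation for androgen deprivation therapy, which the labels do not spell out. The labels number the samples without stating whether animals were separate, and p-values then measure only the spread between these samples, which may be technical. Age differed between the wild type and the combined group and cannot be told apart from genotype there.

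HOX genes set identity along the body axis in the embryo. Genes with low numbers act towards the head and genes with high numbers towards the tail, and within a cluster the genes stand in that same order. Genes with the same number in different clusters are paralogues that descend from one ancestral gene. The prostate grows from the urogenital sinus, in the posterior part of the embryo, and the posterior genes Hoxa10, Hoxa13, Hoxb13 and Hoxd13 are known for their roles in the development of the prostate and its neighbouring glands. HOXB13 binds near the androgen receptor on chromatin in prostate epithelium. Paralogue groups 1 to 5 are called anterior here, 6 to 9 central and 10 to 13 posterior.

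Promoters of 5 members are shown because these genes changed in opposite directions in the Ctnnb1 tumours: Hoxa6 and Hoxa13 had higher, and Hoxb8, Hoxd8 and Hoxd13 lower, levels than in wild type. Each runs 5′ to 3′ from 250 bases before to 50 bases after the RefSeq start of transcription in GRCm38.p6. Capitals mark any copy, on either strand, of CTTTGA, the core of the site bound by the TCF/LEF partners of beta-catenin, of AGAACA, an arm of the element bound by the androgen receptor, or of TATAAA, the TATA box. Hoxa6 is shown for chr6:52208623-52208922 on the minus strand, Hoxa13 for chr6:52260831-52261130 on the minus strand, Hoxb8 for chr11:96281655-96281954 on the plus strand, Hoxd8 for chr2:74704365-74704664 on the plus strand and Hoxd13 for chr2:74667975-74668274 on the plus strand.
Hoxa6: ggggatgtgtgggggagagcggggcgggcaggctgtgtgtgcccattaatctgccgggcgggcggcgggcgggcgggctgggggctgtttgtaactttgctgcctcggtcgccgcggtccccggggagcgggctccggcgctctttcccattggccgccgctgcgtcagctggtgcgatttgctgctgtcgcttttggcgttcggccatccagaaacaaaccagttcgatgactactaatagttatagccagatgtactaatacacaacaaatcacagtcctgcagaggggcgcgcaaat
Hoxa13: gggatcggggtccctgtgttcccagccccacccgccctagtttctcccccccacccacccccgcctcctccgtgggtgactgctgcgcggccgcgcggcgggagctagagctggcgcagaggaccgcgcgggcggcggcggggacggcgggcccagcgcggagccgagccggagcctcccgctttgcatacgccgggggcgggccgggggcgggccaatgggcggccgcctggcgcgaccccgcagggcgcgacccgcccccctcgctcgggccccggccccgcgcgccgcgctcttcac
Hoxb8: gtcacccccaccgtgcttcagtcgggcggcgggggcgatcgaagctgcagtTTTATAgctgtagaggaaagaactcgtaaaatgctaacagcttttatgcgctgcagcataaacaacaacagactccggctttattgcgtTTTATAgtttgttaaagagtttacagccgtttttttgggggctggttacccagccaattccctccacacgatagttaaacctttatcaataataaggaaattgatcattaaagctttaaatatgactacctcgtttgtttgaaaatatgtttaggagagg
Hoxd8: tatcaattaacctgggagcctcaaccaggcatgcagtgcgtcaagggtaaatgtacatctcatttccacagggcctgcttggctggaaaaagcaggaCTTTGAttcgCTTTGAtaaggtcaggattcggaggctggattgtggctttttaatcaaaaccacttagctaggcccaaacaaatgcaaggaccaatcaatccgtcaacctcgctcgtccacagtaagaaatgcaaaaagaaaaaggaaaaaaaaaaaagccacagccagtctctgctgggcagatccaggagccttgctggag
Hoxd13: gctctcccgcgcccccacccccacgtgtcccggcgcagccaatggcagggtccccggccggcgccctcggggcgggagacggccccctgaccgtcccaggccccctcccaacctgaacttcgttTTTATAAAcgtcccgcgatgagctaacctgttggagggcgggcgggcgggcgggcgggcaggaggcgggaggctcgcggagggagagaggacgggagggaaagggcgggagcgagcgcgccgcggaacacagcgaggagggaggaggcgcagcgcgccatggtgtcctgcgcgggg
The Hoxd8 window held 2 copies of CTTTGA, starting 153 and 143 bases before the start site. TATAAA occurred 2 times in the Hoxb8 window and 2 times, overlapping on opposite strands, in the Hoxd13 window, while the Hoxa6 and Hoxa13 windows held none of the 3 motifs. The motifs did not separate the directions beyond these windows. Hoxb4, Hoxd3, Hoxd9 and Hoxd11, also lower in the Ctnnb1 tumours, had none, and neither had Hoxa5 and Hoxa7, which were higher. Hoxa9, Hoxa10 and Hoxa11, higher in mean without passing the test used below, each had a window with CTTTGA or AGAACA. RefSeq gave 24 promoters for 22 HOX genes, 17 of them genes listed in the genotype files. Among these 24 promoters, 16.7% held CTTTGA, 8.33% AGAACA and 16.7% TATAAA, against 16.0%, 19.0% and 13.6% of all 32851 promoters of this length. The HOX promoters had a median GC content of 57.6%, from 39.7% for Hoxd4 to 81.0% for Hoxa13, and a median of 14.5 CG dinucleotides, against 52.7% and 7 over all promoters. A match of these letters is a description and does not show that a factor binds there.

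The values have the form of read counts per gene that the authors divided by a factor for each library and rounded, which no label or header states, and they are called normalised counts or units here. Listed totals were 45675083 to 47248750 units in the wild type files, 32455483 to 35120175 in the Ctnnb1 and combined files and 30591734 to 32791101 in the inducible model, and these are sums of scaled values, not depths. Changes are log2 differences of the value plus 1, tested with limma over all genes, and a gene is called at an adjusted p (Benjamini-Hochberg) below 0.05. Of the 25 HOX genes in the genotype files, 12 share exon bases with another annotated gene and 7 have an antisense partner, so reads of those genes may be split or mixed.

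In wild type prostate the posterior and central HOXB genes led. Levels of different genes are given per kb of exon, which allows for length but not for exon bases shared with other genes. On this scale the mean level of Hoxb13 was 4730 units, from 4460 to 5040 over the 3 libraries, and that of Hoxb9 was 1520, from 1470 to 1570. Hoxa10 followed at 570 (473 to 631), Hoxb6 at 424 (291 to 564) and Hoxd13 at 359 (319 to 384), and the ranges of Hoxa10 and Hoxb6 overlapped, as did those of Hoxb6 and Hoxd13. The paralogue Hoxa13 stood at 226 (204 to 247) per kb, and its range overlapped those of Hoxb8, Hoxa11 and Hoxd8. At the low end was Hoxb2 at 13.3 (6.59 to 18.9). The posterior genes covered most of the range, from Hoxb13 at the top to Hoxd11 at 30.2 (28.3 to 31.3).

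The Ctnnb1 tumours were compared with wild type prostate to ask what accompanies stabilised beta-catenin. The HOX clusters moved in opposite directions. Of the 25 genes, 4 were called higher, all in HOXA, and 15 lower, comprising 9 of 9 HOXB genes, Hoxc10 and 5 of 6 HOXD genes, and 6 were not called. Over all 13905 genes, 28.9% were called higher and 29.6% lower, with a median log2 change of 0.00281. The share of all genes whose groups did not overlap was not counted for either tumour group. Gaps between groups are therefore given only as description. Median changes were 0.70 for the 9 HOXA genes, -2.48 for the 9 HOXB genes and -3.23 for the 6 HOXD genes. Position within a cluster did not separate the directions: 1 anterior, 2 central and 1 posterior gene were called higher, and 5 anterior, 6 central and 4 posterior genes lower.

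**Figure D1:**
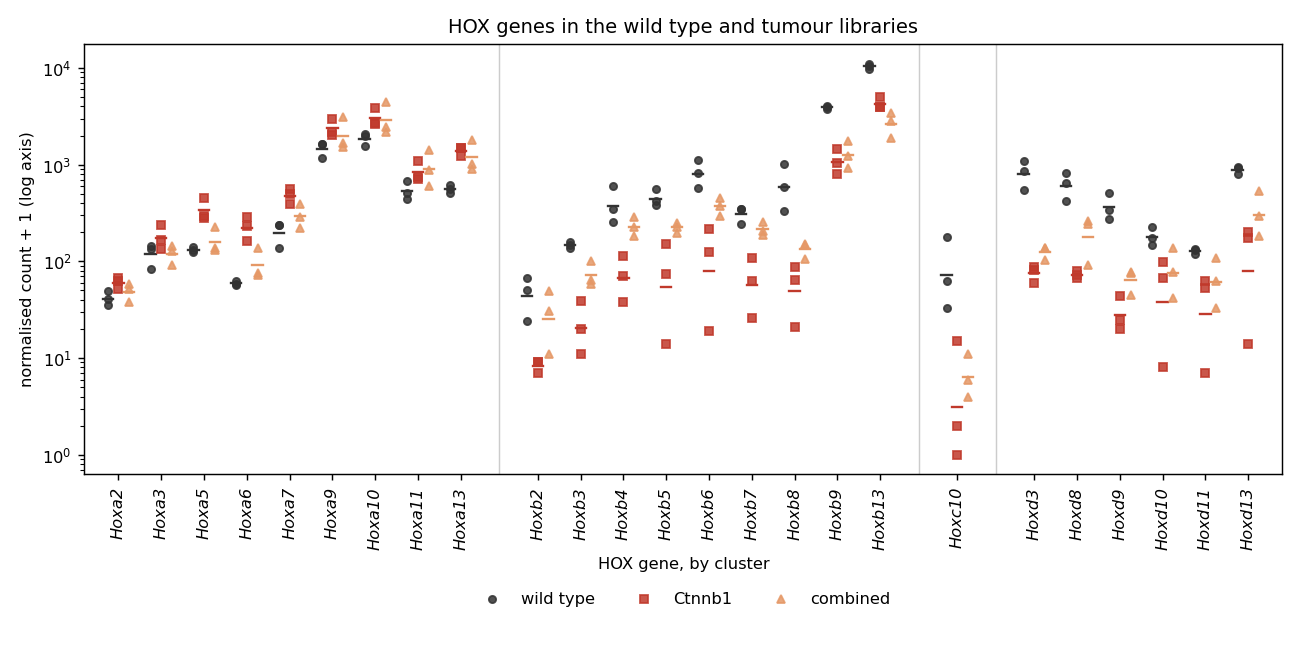
Normalised count plus 1 on a log axis for the 25 HOX genes listed in the genotype files, with 1 point per library of wild type (circles), Ctnnb1 (squares) and combined (triangles) samples and a line at the geometric mean of each group. Every HOXB and HOXD square lies below all wild type circles of its gene, while squares of 8 of the 9 HOXA genes lie above them. The share of all genes with such gaps was not counted.

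Among the HOXA genes, the posterior Hoxa13, which helps to form the urogenital tract and limb ends, was at 611, 564 and 504 units in the wild type libraries and at 1502, 1236 and 1474 in the Ctnnb1 libraries. The groups did not overlap. Its log2 change was 1.32 ± 0.24 (SE, n = 3 and 3; limma adjusted p = 0.00179), a 2.50-fold higher level. The central gene Hoxa6 had 56, 58 and 62 units in wild type and 286, 233 and 160 in the tumours, and its neighbour Hoxa5 had 129, 141 and 123 against 452, 297 and 282. Both were higher in every tumour library than in every wild type library, and Ctnnb1 replicate 13 was the highest. Their log2 changes were 1.89 ± 0.32 and 1.35 ± 0.27 (limma adjusted p = 0.00126 and 0.00292). Hoxa7 was called at 1.27 ± 0.29 (limma adjusted p = 0.00574), with 237, 235 and 136 units in wild type and 556, 498 and 390 in the tumours.

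The remaining 5 HOXA genes were higher in mean and not called. The more abundant of them were Hoxa9, at 1634, 1636 and 1160 units in wild type and 2989, 2200 and 2018 in the tumours, and Hoxa10, at 1976, 2064 and 1548 against 3856, 2684 and 2640. Neither gene's groups overlapped, and their log2 changes were 0.70 ± 0.28 and 0.70 ± 0.27 (limma adjusted p = 0.0601 and 0.0528). Hoxa11, whose exons share 35.0% of their bases with the antisense Hoxa11os, had a log2 difference of 0.64 ± 0.32 (limma adjusted p = 0.112), Hoxa2 of 0.54 ± 0.28 and Hoxa3 of 0.57 ± 0.31. Rescaling libraries to equal totals shifts the median gene by 0.49 on the log2 scale, because the wild type totals are larger. It gave 9 of 9 HOXA genes called higher, where 56.1% of all genes were called higher.

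In HOXB the most abundant HOX gene of the prostate fell. Hoxb13 was at 10365, 11119 and 9832 units in wild type and at 3919, 5058 and 3981 in the Ctnnb1 tumours. The groups were far apart and each varied little. Its log2 change was -1.28 ± 0.20 (limma adjusted p = 0.000954), a 2.43-fold lower level. Its neighbour in the cluster, Hoxb9, had 3774, 4047 and 3943 units in wild type and 793, 1465 and 1048 in the tumours, a log2 change of -1.88 ± 0.27 (limma adjusted p = 0.00055).

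The 7 genes from Hoxb2 to Hoxb8, which stand beyond a long gap from Hoxb13, were all called lower, with log2 changes from -2.39 (Hoxb2) to -3.57 (Hoxb8). Hoxb8, a central gene, was at 584, 331 and 1027 units in wild type and 63, 20 and 87 in the tumours, 11.9-fold lower (log2 change -3.57 ± 0.57; limma adjusted p = 0.00103). Hoxb6 had 818, 571 and 1108 units in wild type and 125, 18 and 213 in the tumours. No tumour library reached any wild type library in these genes, and Ctnnb1 replicate 14 was the lowest in 6 of the 7. Without replicate 14 the log2 change of Hoxb6 was -2.29 in place of -3.33, that of Hoxb5 -2.08 in place of -3.05 and that of Hoxb8 -2.96, and without replicate 15 Hoxb5 was at -3.79 and Hoxb6 at -4.04. Each stayed called. The anterior genes Hoxb3 and Hoxb4 changed by -2.85 ± 0.45 and -2.48 ± 0.44 (limma adjusted p = 0.00101 and 0.00179). Hoxb3 shares 52.9% and Hoxb2 27.3% of its exon bases with the antisense Hoxb3os.

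HOXD was lower from its anterior to its posterior end, with 5 of its 6 listed genes called. Hoxd3, the listed gene nearest to the anterior end, was at 862, 549 and 1093 units in wild type and 80, 59 and 87 in the Ctnnb1 tumours. Hoxd9 was at 342, 273 and 507 against 24, 19 and 43, and Hoxd8 at 649, 419 and 819 against 79, 66 and 72. All 3 genes were several fold lower in every tumour library, with log2 changes of -3.42 ± 0.28, -3.69 ± 0.39 and -3.05 ± 0.42 (limma adjusted p = 4.6e-05, 0.000132 and 0.000454). Hoxd3 shares 62.8% of its exon bases with other genes, including Hoxd4 and the antisense Haglr, so its value is not specific to it, while Hoxd8 and Hoxd9 share none.

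The posterior HOXD genes varied more between tumours. Hoxd13, which acts with Hoxa13 in the embryonic urogenital tract, was at 793, 926 and 954 units in wild type and at 199, 13 and 174 in the Ctnnb1 tumours. Replicate 14 was the low value here too. The log2 change was -3.50 ± 0.93 (limma adjusted p = 0.0119), and it was -2.25 (adjusted p = 0.00275) without replicate 14 and -4.17 without replicate 13. Hoxd10 showed 148, 173 and 227 units in wild type against 66, 7 and 98, and Hoxd11 119, 131 and 132 against 52, 6 and 61. Hoxd10 was not called (-2.27 ± 0.88; limma adjusted p = 0.0539). It stood at -1.15 without Ctnnb1 replicate 14 (adjusted p = 0.0835) and was called without replicate 15 (-2.97, adjusted p = 0.0267), with a pseudocount of 8 (adjusted p = 0.0431) and in a fit of 12 libraries (adjusted p = 0.0331). Hoxd11 was called by a narrow margin (-2.17 ± 0.81; limma adjusted p = 0.0466) and lost its call without wild type replicate 1 (adjusted p = 0.0944), 2 (0.103) or 3 (0.103) or without Ctnnb1 replicate 14 (-1.16, adjusted p = 0.0707). Rescaling to equal totals also ended the call of Hoxd11 (limma adjusted p = 0.092). So did a fit without a trend in the prior variance (limma adjusted p = 0.0561) and a fit of the 2 groups alone (limma adjusted p = 0.0538).

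Of HOXC only Hoxc10, a gene of the posterior trunk and hind limb, was listed. It was at 178, 62 and 32 units in wild type and at 1, 0 and 14 in the Ctnnb1 tumours, a log2 change of -4.53 ± 1.07 (limma adjusted p = 0.00691). It was called at -3.88 without wild type replicate 1, at -3.72 without Ctnnb1 replicate 14 and at -5.67 without Ctnnb1 replicate 15. The wild type libraries spread over a wide range.

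**Figure D2:**
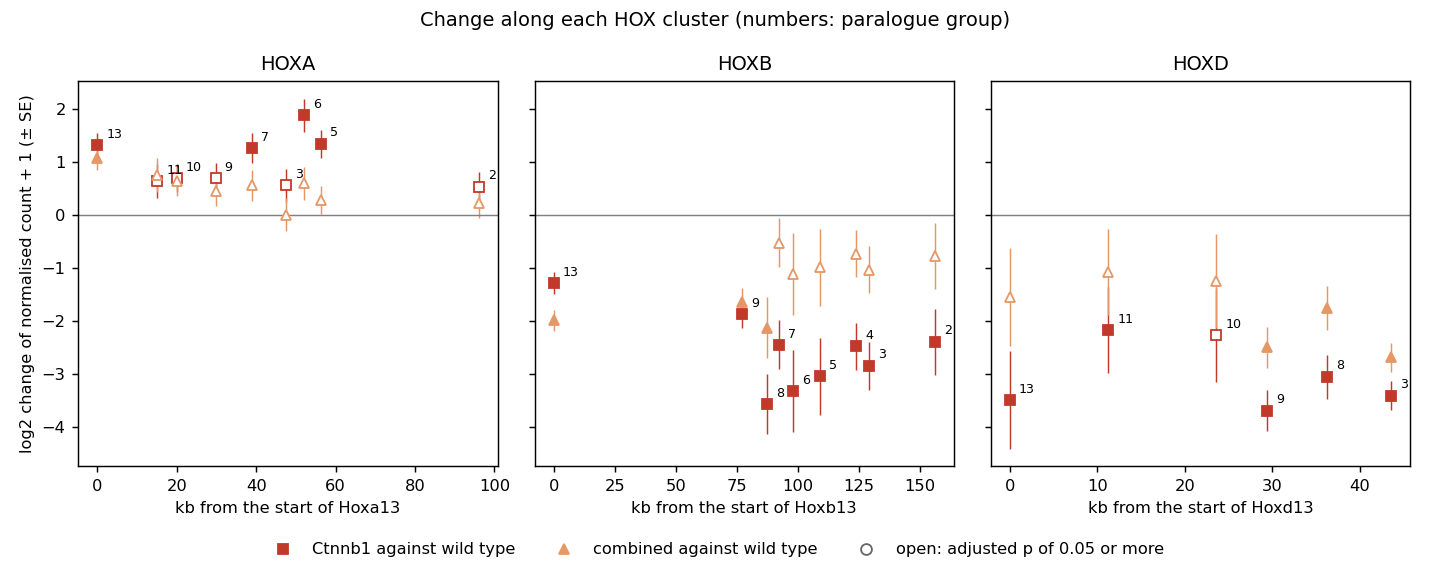
Log2 change against wild type (± SE) for each listed HOXA, HOXB and HOXD gene, plotted by the distance in kb of its start from the start of the paralogue 13 gene, with Ctnnb1 tumours as squares, combined tumours as triangles and genes that were not called as open symbols. All HOXA points lie above 0 and all HOXB and HOXD points below it, at every position.

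In the combined tumours HOXA estimates again lay above wild type and the rest below it, with fewer calls. Of the 25 HOX genes, 1 was called higher and 7 lower, and 17 were not called, where 28.3% of all genes were called higher and 29.5% lower, with a median log2 change of -0.0114. Point estimates were above 0 for 9 of 9 HOXA genes and below 0 for the other 16, but that of Hoxa3 was 0.01 ± 0.31 and changed sign when single libraries were left out. Both tumour groups were set against the same 3 wild type libraries, so these comparisons are not independent, and a difference between the tumour groups was not tested.

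Hoxa13 was the HOX gene called higher in the combined tumours, at 1026, 901 and 1806 units (log2 change 1.09 ± 0.24; limma adjusted p = 0.00472). All 3 libraries exceeded the wild type libraries, with replicate 12 the highest. In the middle of HOXA no gene was called. Hoxa5 had 130, 136 and 228 units against 129, 141 and 123 in wild type, with a log2 change of 0.28 ± 0.27 (limma adjusted p = 0.389). Replicate 12 was the highest of the 3 combined libraries in 8 of 9 HOXA genes. With libraries rescaled to equal totals, 8 HOXA genes were called higher, where 57.3% of all genes were called higher. Without replicate 11 Hoxa10 and Hoxa11 joined Hoxa13 (adjusted p = 0.0346 and 0.0172).

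Hoxb13 was lower in the combined tumours, at 3387, 2853 and 1880 units, than in any wild type library, a log2 change of -1.99 ± 0.20 (limma adjusted p = 0.000109). Hoxb9, at 1223, 913 and 1758 units, changed by -1.65 ± 0.27 (limma adjusted p = 0.00105). Of Hoxb2 to Hoxb8 only Hoxb8 was called, at 105, 146 and 152 units (-2.13 ± 0.57; limma adjusted p = 0.0126). The other 6 had log2 changes between -1.12 and -0.52, among them Hoxb6 at 295, 376 and 455 units (-1.12 ± 0.78; limma adjusted p = 0.245). A fit of the combined and wild type groups alone, which leaves out the widely spread Ctnnb1 libraries, called 11 HOX genes lower in place of 7, adding Hoxb3, Hoxb5, Hoxb6 and Hoxd13.

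Hoxd3, Hoxd8 and Hoxd9 fell again. Hoxd3 was at 135, 135 and 103 units (-2.69 ± 0.28; limma adjusted p = 0.000118), Hoxd9 at 77, 75 and 44 (-2.50 ± 0.39; limma adjusted p = 0.000864) and Hoxd8 at 262, 243 and 90 (-1.75 ± 0.42; limma adjusted p = 0.00712). The posterior Hoxd10, Hoxd11 and Hoxd13 were not called, with Hoxd13 at 528, 291 and 180 units (-1.55 ± 0.93; limma adjusted p = 0.182), although no combined library reached a wild type library in these 3 genes. Hoxc10 was called, at 5, 10 and 3 units (-3.49 ± 1.07; limma adjusted p = 0.0221), and lost the call without wild type replicate 1 (-2.83, adjusted p = 0.082) or 2 (0.0532) or without combined replicate 10 (0.0533) or 12 (0.0571).

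The balance between clusters can be given within each library, where no scaling between libraries enters. Summed per kb over the 25 genes, HOXB made up 72.2%, 74.3% and 74.3% of the HOX level in the wild type libraries, most of it Hoxb13. Its share was 37.3%, 51.6% and 47.3% in the Ctnnb1 tumours and 49.1%, 50.5% and 35.6% in the combined tumours. The share of HOXA was 16.7%, 16.3% and 12.6% in wild type, 59.7%, 47.4% and 48.8% in the Ctnnb1 and 41.5%, 42.0% and 61.4% in combined tumours. Neither cluster's share overlapped between wild type and either tumour group. With 3 libraries against 3 a two-sided exact permutation test cannot go below p = 0.1, so no test is given.

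**Figure D3:**
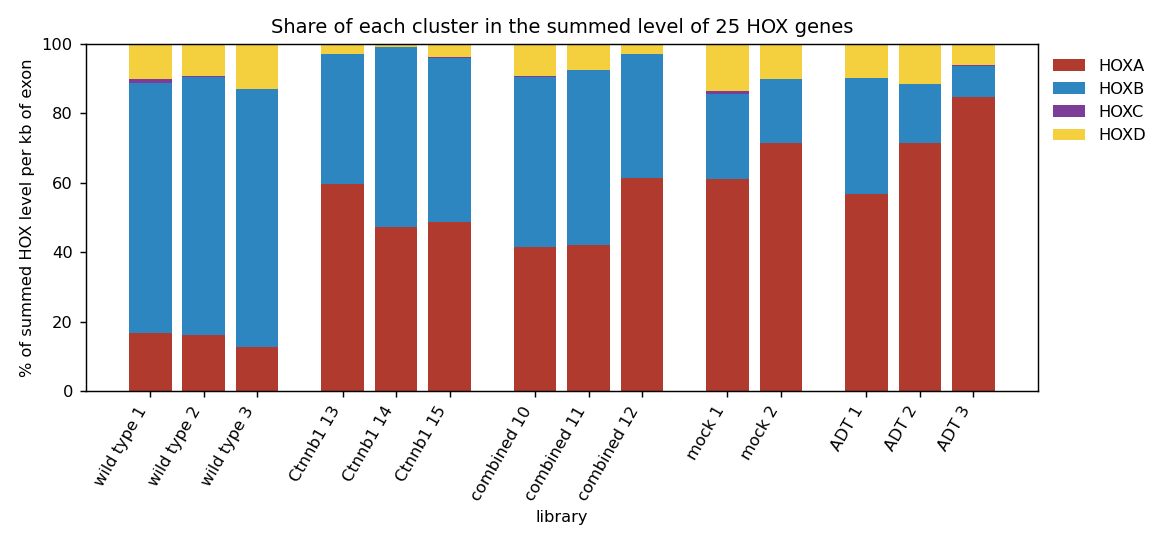
Share of each cluster in the summed level per kb of the 25 HOX genes listed in both file sets, with 1 bar per library. HOXB takes 72.2% to 74.3% in wild type and at most 51.6% in the Ctnnb1 and combined tumours, where HOXA takes most of the remainder. Mock and ADT bars belong to files normalised apart and are to be compared only with each other.

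Pairs of paralogues were compared in the same way, as ratios within a library. Hoxa13 per kb was 0.0526, 0.0453 and 0.0457 times Hoxb13 in the wild type libraries, 0.342, 0.218 and 0.33 times in the Ctnnb1 tumours and 0.27, 0.282 and 0.857 times in the combined tumours. Against Hoxd13, Hoxa13 stood at 0.774, 0.612 and 0.531 in wild type and at 7.58, 95.5 and 8.51 in the Ctnnb1 tumours, so the higher member of this pair changed from Hoxd13 to Hoxa13. The pair of central genes Hoxa9 and Hoxb9 moved from ratios of 0.2, 0.186 and 0.136 to 1.74, 0.693 and 0.888 in the Ctnnb1 tumours. Hoxa3 against Hoxd3, both anterior, moved from 0.116, 0.17 and 0.0529 to 2.08, 1.94 and 1.07. Hoxa3 shares 27.1% and Hoxd3 62.8% of its exon bases with other genes, so this ratio is not specific to the 2 genes. Tumour ratios lay above every wild type ratio in each of these pairs.

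**Figure D4:**
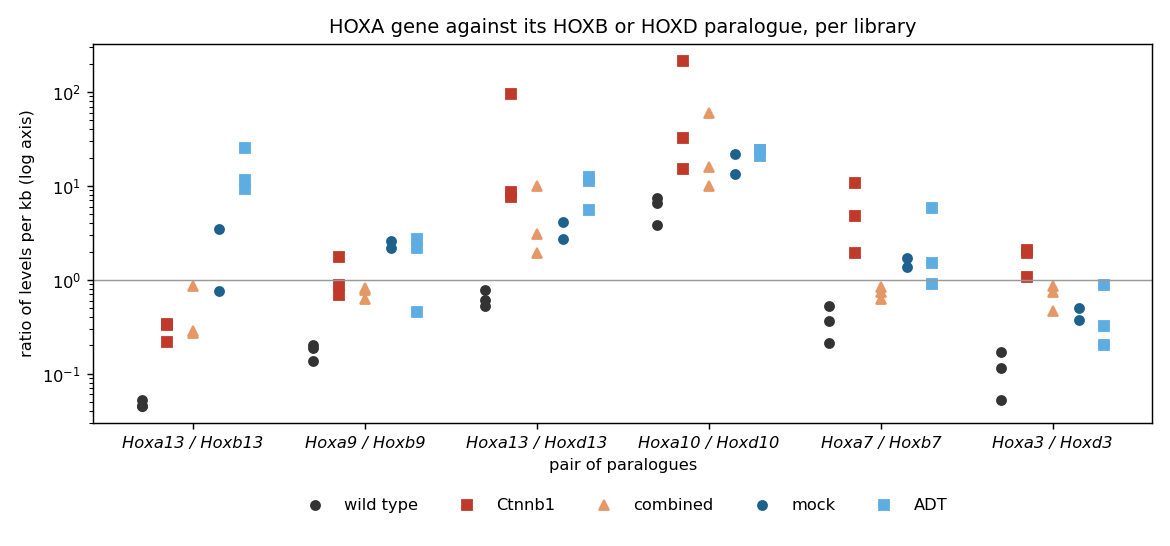
Ratio of the level per kb of a HOXA gene to that of its HOXB or HOXD paralogue, on a log axis, with 1 point per library and a line at 1. Wild type points lie below all Ctnnb1 and combined points of every pair. Mock and ADT points belong to files normalised apart and are to be compared only with each other. For Hoxa13 over Hoxb13 the ADT libraries, at 9.28 to 25.6, lie above the mock libraries, at 0.766 and 3.49.

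Markers of other tissues differed between these groups and are given as measured. All 10 smooth muscle markers were called lower in both tumour groups. Their summed value was 144728 to 185002 units in wild type, 1832 to 3542 in the Ctnnb1 and 5991 to 19978 in the combined tumours. The 7 seminal vesicle markers summed to 1309279, 479326 and 4638336 units in wild type replicates 1, 2 and 3, to 5140, 205 and 2008 in Ctnnb1 and to 203826, 213638 and 44682 in combined tumours, so the wild type samples held RNA typical of the seminal vesicle in unequal amounts. Some libraries with extreme HOXD values were also extremes of these sums. Wild type replicate 3 had the highest value of 6 of 6 HOXD genes and the highest smooth muscle and seminal vesicle sums, and Ctnnb1 replicate 14 and combined replicate 12 had the lowest value of 6 of 6 HOXD genes and the lowest sums of their groups. Among Hoxb2 to Hoxb8, the genes that ordered the libraries as the seminal vesicle sum does were 5 of 7 in wild type (14.1% of all genes), 0 of 7 in the Ctnnb1 tumours (18.2%) and 2 of 7 in the combined tumours (18.8%). With the smooth muscle sum they were 0 of 7 in wild type (17.3%). Of the HOXD genes, 3 of 6 in wild type followed the order of the seminal vesicle sum (14.1% of all genes). In the Ctnnb1 tumours 2 of 6 did so (18.2%) and in the combined tumours 0 of 6 (18.8%). These HOXD counts were the same with the smooth muscle sum. Combined replicate 10 had the highest value of 5 of 6 HOXD genes, while combined replicate 11 had the highest sums. Nerve and Schwann cell markers were called lower in 8 of 8 and 7 of 8 genes. Fibroblast markers were called higher in 7 of 10 genes in the combined tumours, with a sum of 38913 units in replicate 12 against 288995 and 573865 in the other libraries, and lower in 2 of 10 in the Ctnnb1 tumours. Of the 8 luminal epithelial markers 4 were called higher and 2 lower in the Ctnnb1 and 5 and 1 in the combined tumours, with Epcam lower in both, and the list summed to 85677 to 100188 units in wild type, 104237 to 143733 in Ctnnb1 and 126116 to 179219 in combined tumours. Macrophage markers were called higher in 6 of 8 and 7 of 8 genes, with sums of 4613 to 5093 units in wild type, 9399 to 19105 in Ctnnb1 and 12859 to 47096 in combined tumours. Skeletal muscle markers were called lower in 6 of 7 and 7 of 7 genes, with sums of 30024 to 140275 units in wild type, 117 to 9529 in Ctnnb1 and 726 to 2231 in combined tumours. These counts and sums include Des, which is also among the smooth muscle markers. The mean of Des was 18470 units in wild type, 316.7 in Ctnnb1 and 1129 in combined tumours. T and B cell markers were called higher in 1 of 6 and 4 of 6 genes. Of 8 endothelial markers 1 was called higher and 1 lower in the Ctnnb1 and 5 and 0 in the combined tumours, and of 6 basal epithelial markers 1 and 2 were called lower. In whole tissue, fewer cells of a type and less RNA per cell cannot be told apart, and the part of these tissues in the HOX changes was not tested.

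Genes that flank the clusters were read as the 3 nearest listed protein-coding genes on each side. Evx1, a homeobox gene of the even-skipped family 52.6 kb beyond the Hoxa13 end of HOXA, was at 31, 16 and 30 units in wild type, 845, 924 and 760 in the Ctnnb1 tumours and 470, 238 and 572 in the combined tumours. Its log2 changes were 5.04 ± 0.36 and 3.97 ± 0.36 (limma adjusted p = 3.04e-05 and 6.79e-05). Its relative Evx2, 8.75 kb beyond the Hoxd13 end of HOXD, was at 101, 113 and 146 units in wild type and at 12, 2 and 20 in the Ctnnb1 and 40, 22 and 13 in the combined tumours, with log2 changes of -3.68 ± 0.72 and -2.34 ± 0.72 (limma adjusted p = 0.00292 and 0.0229). In the Ctnnb1 tumours Evx2 ranged from -4.26 without replicate 15 to -2.86 without replicate 14. Its call in the combined tumours held in 2 of 6 fits that left out a library and was lost after rescaling to equal totals. Further out the flanks did not share the sign of their cluster in all cases. Mtx2, a mitochondrial import gene 60.7 kb beyond the anterior end of HOXD, was higher by 0.39 ± 0.06 in the Ctnnb1 tumours (limma adjusted p = 0.00101), and Lnpk, on the other side of HOXD, was not called. Of the 6 genes flanking each cluster, where 28.9% of all genes were called higher and 29.6% lower, 4 were called higher and 0 lower beside HOXA, 4 lower and 0 higher beside HOXB, 4 higher and 1 lower beside HOXC and 3 higher and 1 lower beside HOXD in the Ctnnb1 tumours. In the combined tumours the counts beside HOXA, HOXB and HOXD were the same, and 2 were called higher and 2 lower beside HOXC. These flanking genes lay as far as 910 kb from their cluster (Nfe2l2), and some of the calls were weak. In the Ctnnb1 tumours Snx10 and Calcoco1 each kept the call in 1 of 6 fits that left out a library. Tarbp2 kept it in 0 of 6 and Cbx5 in 4 of 6. Rescaling to equal totals ended the calls of Atp5g1, Snx11 and Copz1 in both tumour groups.

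Genes that work with or on HOX genes were counted against the same background. Of the 7 listed TALE genes, whose proteins bind DNA together with HOX proteins, 1 was called higher and 3 lower in the Ctnnb1 tumours, and 1 and 1 in the combined tumours. Meis2 had 933, 745 and 862 units in wild type and 117, 139 and 121 in the Ctnnb1 tumours, with no overlap (log2 change -2.74 ± 0.42; limma adjusted p = 0.000804). Meis1, a partner of posterior HOX proteins that include Hoxb13, was lower in both groups, by -1.05 ± 0.33 and -1.18 ± 0.33 (limma adjusted p = 0.0233 and 0.014), but in the Ctnnb1 tumours it kept the call in 1 of 6 fits that left out a library, and rescaling to equal totals ended both calls. Pknox2 was lower in the Ctnnb1 tumours by -1.97 ± 0.47 (limma adjusted p = 0.00703). In the combined tumours neither Pknox2 (-0.45 ± 0.47; limma adjusted p = 0.429) nor Meis2 (-1.01 ± 0.42; limma adjusted p = 0.0666) was called.

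Polycomb proteins keep HOX clusters silent and Trithorax proteins keep them active. Of 19 Polycomb genes, 8 were called higher and 2 lower in the Ctnnb1 tumours, and 8 and 5 in the combined tumours. The methyltransferase gene Ezh2 had 340, 324 and 337 units in wild type, 1073, 954 and 1026 in the Ctnnb1 and 1165, 1253 and 1351 in the combined tumours (log2 changes 1.61 ± 0.09 and 1.91 ± 0.09; limma adjusted p = 1.08e-05 and 8.07e-06). Both tumour groups lay far above wild type. Bmi1, of the other main Polycomb complex, was lower by -0.90 ± 0.09 and -0.59 ± 0.09 (limma adjusted p = 0.000133 and 0.00103), and Phf19 by -1.98 ± 0.17 and -2.75 ± 0.17. Of 12 Trithorax and H3K27 demethylase genes, 8 were called higher and 1 lower in the Ctnnb1 tumours and 3 and 3 in the combined tumours. Kmt2a, a methyltransferase gene needed to maintain HOX expression, changed by 0.81 ± 0.12 in the Ctnnb1 tumours (limma adjusted p = 0.000704). It was not called in the combined tumours (0.10 ± 0.12; limma adjusted p = 0.499).

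Upstream patterning genes act on HOX clusters through retinoic acid, caudal proteins and growth factors. The list also held Evx1 and Evx2, which are the flanking genes already counted above and not separate observations. Of its 10 listed genes, 5 were called higher and 1 lower in the Ctnnb1 tumours and 6 and 1 in the combined tumours. The lower one was Evx2 in both tumour groups, and Evx1 was among the higher ones in both. Aldh1a3, which makes retinoic acid, changed by 2.23 ± 0.33 and 2.66 ± 0.33 (limma adjusted p = 0.000704 and 0.000294), the retinoic acid receptor gene Rarg by 1.46 ± 0.15 and 1.08 ± 0.15 (limma adjusted p = 0.000127 and 0.000537) and Rara by 0.61 ± 0.11 and 1.16 ± 0.11. Gdf11, a signal that shifts HOX expression to posterior genes in the embryonic trunk, changed by 2.28 ± 0.22 in the combined tumours (limma adjusted p = 8.06e-05). It was not called in the Ctnnb1 tumours (0.33 ± 0.22; limma adjusted p = 0.224). Of 9 prostate epithelial transcription factors, 2 were called higher and 5 lower in the Ctnnb1 tumours and 1 and 6 in the combined tumours. Sox9, a factor of epithelial progenitors in prostate development, was higher by 1.08 ± 0.12 and 1.00 ± 0.12 (limma adjusted p = 0.00015 and 0.000206). Pax2, a factor of the embryonic ducts that give rise to the seminal vesicle, was lower by -6.65 ± 0.91 and -4.35 ± 0.91 (limma adjusted p = 0.000456 and 0.00382). Gata2, a partner of the androgen receptor on chromatin, changed by -1.12 ± 0.17 in the combined tumours (limma adjusted p = 0.000842). It was also called in the Ctnnb1 tumours (-0.84 ± 0.17; limma adjusted p = 0.00357), a call that rescaling to equal totals ended. The only listed noncoding HOX transcript, Hoxa11os, was not called.

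ADT was compared with mock treatment in the inducible model to ask what changes when androgen signalling is withdrawn from these tumours. No HOX gene was called. The test itself called little, since limma called 2 of 23289 genes, both higher (0.00859%), with 3779 at an unadjusted p below 0.05, against 0 of 36 HOX genes called and 2 at an unadjusted p below 0.05. Those 2 HOX genes were the posterior paralogues Hoxa13 and Hoxb13, with opposite signs. Hoxc12 was listed at 0 in all 5 libraries and was not tested.

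Hoxa13 was at 785 and 1719 units after mock treatment and at 2673, 2897 and 3121 after ADT. All ADT libraries lay above both mock libraries, which differed by more than the ADT libraries did. The log2 difference was 1.31 ± 0.36 (SE; limma adjusted p = 0.201). Hoxb13 was at 914 and 440 units after mock treatment and at 257, 224 and 109 after ADT, with the ADT libraries below both mock libraries (-1.78 ± 0.53; limma adjusted p = 0.229). A limma fit of all 17 libraries of the series, on the 13405 genes that their files share, called both (adjusted p = 0.00974 and 0.024), as it did 9.22% of those genes as higher and 8.15% as lower. On the same genes, the 5 inducible libraries alone called neither (limma adjusted p = 0.164 and 0.192).

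Groups did not overlap in 7 of the 36 genes, 4 with ADT higher and 3 with ADT lower, or 11.1% and 8.33%, where 16.4% and 16.8% of all genes tested had such groups. Besides Hoxa13, the higher ones were Hoxa5, with 217 and 224 units after mock treatment and 278, 298 and 324 after ADT, Hoxa6, with 114 and 206 against 226, 278 and 281, and Hoxa11, with 1153 and 1583 against 1852, 1696 and 1904. Their log2 differences were 0.44 ± 0.20, 0.76 ± 0.34 and 0.43 ± 0.18. Besides Hoxb13, the lower ones were Hoxd10, with 114 and 116 against 73, 90 and 64, and Hoxd11, with 169 and 129 against 81, 100 and 99 (-0.61 ± 0.32 and -0.66 ± 0.30). None of these differences was called, and the share of such genes was below that of all genes.

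**Figure D5:**
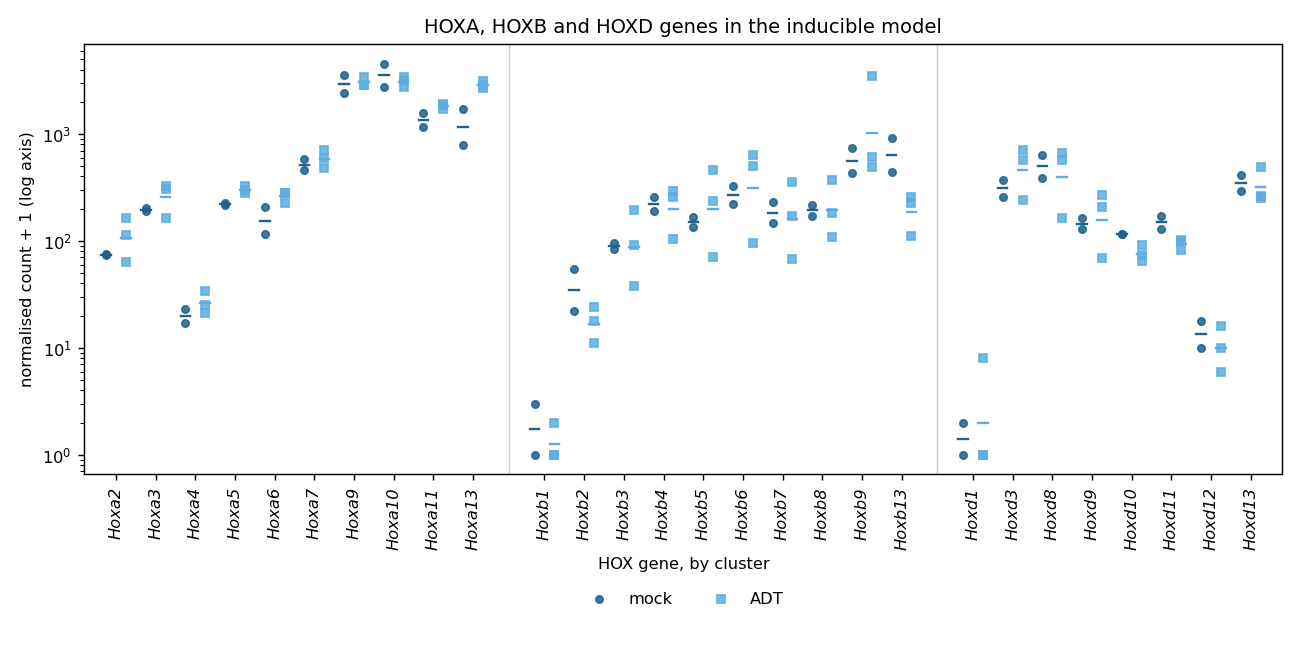
Normalised count plus 1 on a log axis for the HOXA, HOXB and HOXD genes in the 2 mock (circles) and 3 ADT (squares) libraries, with a line at the geometric mean of each group. Hoxa13 lies higher and Hoxb13 lower in every ADT library than in both mock libraries, while 1 ADT library stands apart in Hoxb9 at 3458 units.

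Single libraries set several other values. Hoxb9 was at 3458 units in ADT replicate 1 and at 614 and 488 in the others, against 426 and 743 after mock treatment. That replicate was the highest ADT library in 6 of the 7 genes from Hoxb2 to Hoxb8, and replicate 3 was the lowest in 6 of these 7 and in 5 of 6 HOXD genes, with Hoxb6 at 640, 499 and 95 units. The fibroblast marker sum was 363581, 77270 and 58970 units in the 3 ADT libraries, highest in replicate 1, and 503917 and 99097 in the mock libraries. In the mock group the order was the other way. Mock replicate 1 had the higher fibroblast sum but the lower Hoxb9 value. It was also the lower mock library in 5 of the 7 genes from Hoxb2 to Hoxb8. Luminal markers summed to 118226 and 146289 units after mock treatment and 60655, 83596 and 60422 after ADT. The part of cell composition in these HOX values was not tested. The anterior genes Hoxa4, Hoxb1 and Hoxd1 had at most 33, 2 and 7 units in any library, and the 9 HOXC genes at most 64.

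By level per kb, Hoxa10 led after mock treatment at 1120 units (849 to 1390), followed by Hoxa11 at 598 (504 to 692) and Hoxa9 at 531 (430 to 632), whose ranges overlapped. After ADT the order began with Hoxa13 at 1170 (1080 to 1260), Hoxa10 at 948 (846 to 1030) and Hoxa11 at 795 (742 to 833). Hoxb13 stood at 307 (199 to 414) per kb after mock treatment. Within libraries Hoxa13 was 0.766 and 3.49 times Hoxb13 per kb after mock treatment and 9.28, 11.5 and 25.6 times after ADT. HOXA made up 61.1% and 71.4% of the summed HOX level after mock treatment and 56.8%, 71.5% and 84.7% after ADT, and these shares overlapped. The inducible files were normalised apart from the genotype files, so their levels are not compared in a test.

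Transcripts from the Hoxa13 end of the cluster were also listed in this model. Hottip, a noncoding RNA that starts beside Hoxa13 and is known to hold posterior HOXA genes active, was at 50 and 270 units after mock treatment and 683, 521 and 941 after ADT (2.56 ± 0.78; limma adjusted p = 0.232). Evx1 was at 189 and 429 units against 1812, 4434 and 2423 (3.24 ± 0.54; limma adjusted p = 0.128). Neither was called, and in both all ADT libraries lay above the mock libraries. Of 12 tested noncoding HOX transcripts 0 were called by limma, as were 0 of 9 TALE, 19 Polycomb, 12 Trithorax, 13 patterning and 10 prostate factor genes. Among the patterning genes Gdf11 had 444 and 243 units after mock treatment and 3753, 9154 and 4548 after ADT (limma adjusted p = 0.0993). The HOX cluster microRNA genes Mir10a, Mir10b, Mir196a-2, Mir196b and Mir615 were listed at 0 in every library.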

How the data were processed

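RNA was extracted from frozen tissue, with an integrity number above the labels' threshold, and libraries were sequenced as paired reads, per the labels' protocols. Per the submitters' processing notes, HTSeq 0.6.0 and DESeq2 1.14.1 were among the tools, beside R 3.2.3, Bowtie2 2.2.6.0, TopHat2 2.1.0 and FastQC 0.11.4, and the build was GRCm38.p3; the role of each is not given in the sources used here. The deposited values are whole numbers, treated here as a score: gene counts that the authors appear to have divided by a size factor and rounded. Raw counts could not be recovered for every library, so no count test was run and depth is unknown.

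Values were tested as log2(value + 1) with limma 3.58.1 in R 4.3.3 (moderated test with a trend in the prior variance, Benjamini-Hochberg adjustment over all genes tested). The 9 genotype libraries shared a fit, with genes of at least 1 unit in 3 libraries. The 5 inducible libraries shared another, with genes of at least 1 unit in 2. Both fits were also run on simulated data with a single spread for all genes and libraries. That run does not show how well the fits suit these data. A further genotype group of the series, the further change in the combined group, a HOX gene and a gene of another list are not reported here; both genes stayed in the fits over all genes and are in no other count. Gene positions and exon lengths come from GENCODE M21 on GRCm38, sequences from RefSeq on GRCm38.p6. Tables were handled with Python 3.11.15 and pandas 2.3.3. Any HOX member could be named. Of each other list, called genes with the smallest p in either tumour comparison were named, up to 4 a comparison, or up to 2 as values where none was called; flanking genes and Epcam were chosen after their values were seen. The members and lists were chosen with earlier results of these data known.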

Additional observations from a re-analysis of the deposited data

How the results depend on the processing

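All 25 HOX genes kept the sign of their change in the Ctnnb1 tumours under every alternative run. The same held for 24 of 25 in the combined tumours, where Hoxa3, at 0.01, was at 0.517 after rescaling to equal totals and, when single libraries were left out, ranged from -0.239 without wild type replicate 3 to 0.197 without combined replicate 10; it was below 0 without combined replicate 11 or 12. Under ADT 19 of 36 genes changed sign when some library was left out and 7 under another setting, none of them among the 7 genes whose groups did not overlap.

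HOX genes called higher in the Ctnnb1 tumours numbered 4, 9 after rescaling to equal totals and 7 in a fit of the 2 groups alone. In the combined tumours they numbered 1, 8 after rescaling to equal totals, 3 in a fit of 12 libraries and 1 to 3 when single libraries were left out, and genes called lower numbered 7, or 11 in a fit of the 2 groups alone. Rescaling to equal totals moved the higher share of all called genes from 49.4% to 78.9% in the Ctnnb1 and from 48.9% to 81.9% in the combined tumours. The share of all genes called higher went from 28.9% to 56.1% and from 28.3% to 57.3%, and the median gene moved by 0.49 and 0.50. After rescaling to equal upper quartiles 28.8% and 29.6% of all genes were called higher. Under ADT a fit of 17 libraries called 1 HOX gene higher and 1 lower, and 1236 and 1093 of the 13405 genes shared by all files, against 2 and 0 of 23289 in the 5 libraries. A fit of these 5 on the same 13405 genes, chosen after seeing the data, called 0 HOX genes and 10 and 2 genes in all. Other settings called 0 to 38 genes higher and 0 to 22 lower there. Mock and ADT samples share only a number, with correlations of their deviations of 0.223 and 0.117 for the same number. The differently numbered mock replicate 2 and ADT replicate 3 gave 0.137. Deviations of the 2 mock libraries mirror each other, so these correlations cannot decide whether samples were paired. With the number as a replicate block 0 HOX genes were called, Hoxa13 was at 1.26 (limma adjusted p = 0.383) and Hoxb13 at -1.40 (limma adjusted p = 0.363). Apart from the scaling, the cause of these shifts was not tested. With 2 or 3 libraries a group, small changes may be missed.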
